A study of Mus musculus with 56 samples.

Results

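The livers of mice born without miR-122 were compared with the livers of uninjected mice carrying loxP sites around the miR-122 gene, by RNA-seq of polyadenylated RNA with 3 livers a side. Genes were chosen by a mean level of at least 1 FPKM over these 6 livers after rows of the same symbol were added, which kept 10918 of 21888 symbols. FPKM is the number of fragments mapped to a transcript, scaled to its length and to the depth of the library. The knockout group held livers A, B and C of miR-122 knockout mice, for which the labels name no Cre and no restriction to a tissue, as in a germline knockout. The uninjected group held livers A, B and C of floxed mice that received no Cre vector and so still carry a working gene. The labels give 129Sv/J as the strain of both groups and give neither age nor sex. The knockout mice were a separate line rather than treated floxed mice, so genotype and colony cannot be told apart. The study's question was how the targets of miR-122, and liver genes at large, stand when the microRNA is missing. In the study's other mice the gene was removed from the adult liver by Cre from an adeno-associated vector, and 8 such livers, taken 21 to 200 days after the vector, shared the model fit. Each run of 3 values gives livers A, B and C in that order.

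miR-122 is the dominant microRNA of the hepatocyte. It pairs through its seed with sites in messenger RNAs, mostly in their 3′ ends, and brings about their decay or blocks their translation, so direct targets are normally held low in hepatocytes. Mice without it are known for fatty change and inflammation of the liver, low blood lipids, scarring and later liver tumours, and the microRNA is also known for its link to cholesterol, fatty acid and iron metabolism.

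The 6 libraries did not form 2 even groups, and knockout liver C is therefore shown apart throughout. Knockout A and B resembled each other, with a Spearman correlation over genes of 0.979, while C gave 0.828 with A, 0.854 with B and 0.916 to 0.925 with the 3 uninjected livers. A and B also differed from the other 4 libraries by the base composition of the transcripts. Over 8 groups of 1350 or 1351 genes ordered by GC content, the median log2(FPKM + 1) minus the uninjected mean went from -1.10 to 0.81 in A and from -0.87 to 0.77 in B, against 0.067 to -0.022 in C. By transcript length the same measure went from 0.49 in the shortest group to -0.60 in the longest in A, from 0.33 to -0.30 in B and from -0.096 to 0.11 in C. Sex differed within both groups. Y-linked transcripts, summed, stood at 66.8 FPKM in uninjected B and 53 FPKM in knockout C and at no more than 0.051 FPKM in the other 4 livers, so each group held 1 liver with male transcripts. The knockout libraries were also shallower: 1 fragment on 1 kilobase of transcript was worth 0.035 to 0.0435 FPKM in them and 0.0192 to 0.0218 FPKM in the uninjected libraries. Results of 2 more fits are therefore given beside many of the main ones. The first is a fit in which each library's trend on GC content and length was taken off and sex was a term ("corrected", 10808 genes). The second is a fit with C as the single knockout library and sex as a term ("C alone"), in which 1 liver is assumed to vary like the other groups. Both were added after the data had been seen.

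**Figure D1:**
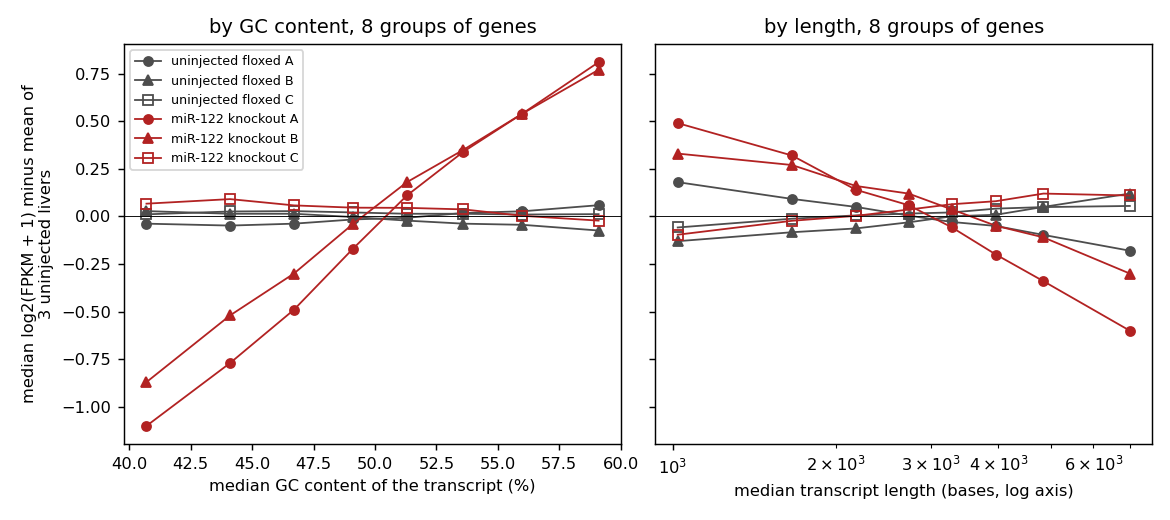
Median difference of each library from the mean of the 3 uninjected livers (y axis, log2(FPKM + 1)) in 8 groups of genes ordered by GC content of the transcript in percent (left) or by its length in bases on a log axis (right); circles, triangles and open squares are livers A, B and C, grey uninjected and red knockout. Knockout A and B run from -1.10 and -0.87 in the group of lowest GC content to 0.81 and 0.77 in the highest, and knockout C stays between -0.022 and 0.091.

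In the fit of 14 libraries (limma, two-sided, Benjamini-Hochberg adjusted p under 0.05), 2106 genes were higher in the knockout and 1629 were lower, which is 19.3% and 14.9% of the genes tested and 34.2% together. Of these, 1015 rose and 599 fell by more than 1 on the log2(FPKM + 1) scale. The median difference of all 10918 genes was 0.005. The corrected fit called 2136 genes higher (19.8%) and 2844 lower (26.3%), with 1522 of the 2106 and 1292 of the 1629 called in the same direction and 0 in the opposite one. In C alone 491 genes were higher (4.50%) and 243 lower (2.23%), 365 and 174 of them also called with 3 livers, and 345 and 165 genes passed in the same direction in the 3 fits. Levels of the 2106 higher genes in C lay on the same side of the uninjected mean for 2064 genes, with a median difference of 0.557 against 1.18 in A and 1.25 in B. For the 1629 lower genes C lay below for 1496, with a median of -0.311 against -1.24 in A and -1.08 in B. C took part in the fit that called these genes, so its agreement in direction was in part fixed by the calls. Leaving out C raised the counts to 3484 higher and 3424 lower, and leaving out B reduced them to 1064 and 563. They were 1300 and 644 without knockout A and 1313 and 806 without uninjected B, and 895 genes were lower without uninjected C. The p-values measure the spread between these livers and no more. In bulk tissue fewer cells of a type and less RNA per cell cannot be told apart.

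**Figure D2:**
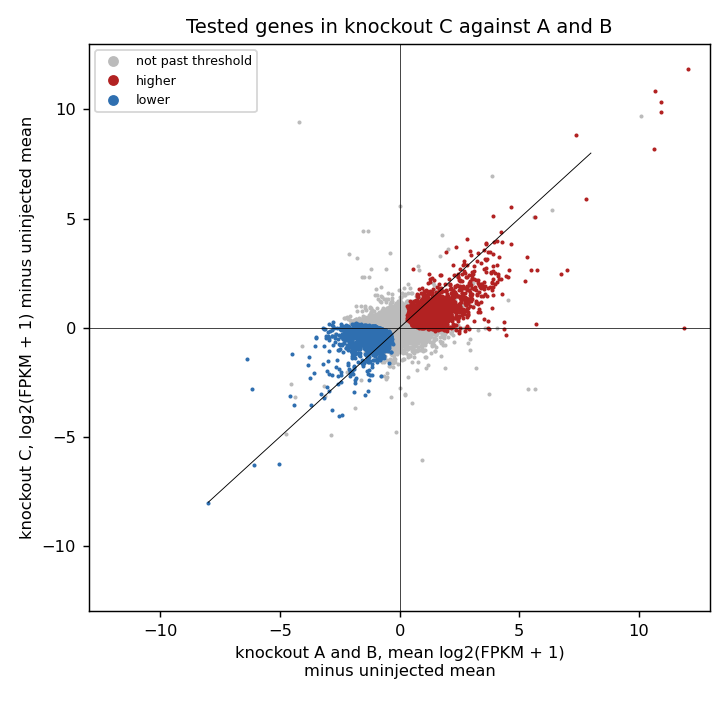
Difference from the uninjected mean in knockout C (y axis) against the mean of knockout A and B (x axis), both on the log2(FPKM + 1) scale, 1 point for each of the 10918 genes tested; red genes were higher and blue genes lower at an adjusted p under 0.05, grey genes did not pass, and the diagonal marks equal differences. The red genes have medians of 1.18 and 1.25 in A and B and of 0.557 in C, and the blue genes of -1.24 and -1.08 in A and B and of -0.311 in C. C took part in the fit that made these calls.

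miR-122 targets with published evidence were higher without the microRNA: 22 of the 29 tested members rose and 0 fell, with a median log2 difference of 1.28 against 0.005 for all genes. In liver C taken alone 18 members rose and 0 fell, with a median of 1.40, and in the corrected fit 26 rose, with a median of 1.16. In the 3 knockout livers 23 of the 29 lay above all 3 uninjected livers, beside 20.5% of all genes. The count ran from 17 without knockout B to 22 without knockout C.

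Aldoa, the muscle-type aldolase of glycolysis and a long-known miR-122 target, was the most abundant member, at 69.4, 73.1 and 62.1 FPKM in uninjected livers and 499.8, 440.2 and 245 FPKM in knockout livers. Its log2 difference was 2.45 ± 0.26 (SE, limma adjusted p = 7.1e-05) and 1.57 (limma adjusted p = 0.0019) in C alone. Gpx7, a peroxidase of the endoplasmic reticulum, showed the largest rise of the list at 3.26 ± 0.32 (SE, limma adjusted p = 3.8e-05). It stood at 2.68, 1.57 and 2.52 FPKM in uninjected livers and 38.4, 39.3 and 17.5 FPKM in knockout livers, and at 2.83 (limma adjusted p = 0.001) on the log2 scale in C alone. Agpat1, an acyltransferase on the way to phospholipids and triglycerides, went from 5.64, 3.91 and 4.41 FPKM to 46.3, 50 and 25.5 FPKM, a difference of 2.83 ± 0.25 (SE, limma adjusted p = 1.8e-05). Gys1, the muscle-type glycogen synthase, stood at 0.757, 0.639 and 0.654 FPKM and 4.97, 4.23 and 3.05 FPKM, a difference of 1.58 ± 0.19 (SE, limma adjusted p = 0.00017). The groups did not overlap for any of these 4 genes, and in each of them C was the lowest of the 3 knockout livers and still above every uninjected liver. Hfe2, or hemojuvelin, a co-receptor that drives hepcidin expression, rose from 40, 30.4 and 49.7 FPKM to 111, 86.1 and 94.7 FPKM, a difference of 1.28 ± 0.17 (SE, limma adjusted p = 0.00042). Here C lay between A and B. Prom1, a membrane protein of progenitor cells that also marks bile duct cells, stood at 1.63, 0.449 and 1.48 FPKM and 19.9, 24.5 and 7.51 FPKM, a difference of 2.97 ± 0.53 (SE, limma adjusted p = 0.002).

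One well-known target behaved differently between the knockout livers. Ccng1, the cyclin G1 gene and also a p53 target, was chosen for mention after its values were seen. It stood at 12.5, 12.2 and 13.9 FPKM in uninjected livers and 8.27, 9.32 and 33.5 FPKM in knockout livers, below the uninjected livers in A and B and above them in C. The difference did not pass with 3 livers (0.10 ± 0.38 SE, limma adjusted p = 0.85), whereas it passed in C alone (1.38, limma adjusted p = 0.016) and in the corrected fit (0.67, limma adjusted p = 0.019). Without C it was lower in the knockout, at -0.50 (limma adjusted p = 0.030).

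**Figure D3:**
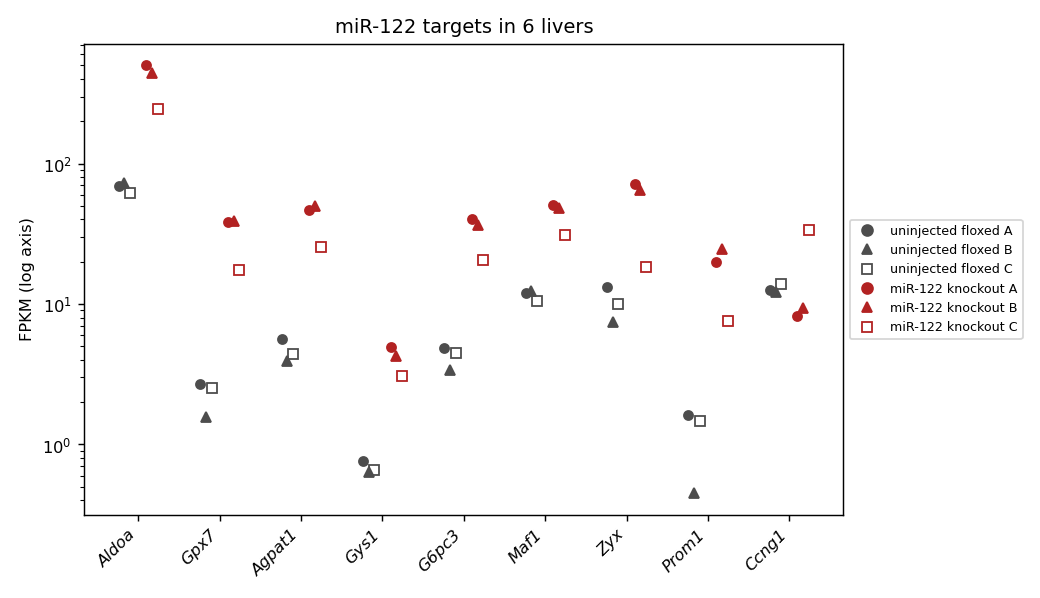
FPKM on a log axis of 9 miR-122 targets, published or predicted, in the 6 livers; circles, triangles and open squares are livers A, B and C, grey uninjected and red knockout. For 8 of the 9 genes each knockout liver lies above each uninjected liver, whereas Ccng1 is above them in knockout C at 33.5 FPKM and below them in A and B.

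Of the targets that the study took from the TargetScan prediction for miR-122, 128 were tested, 40 of which rose (31.3%) and 6 fell (4.69%), beside 19.3% and 14.9% of all genes. The list shares members with the published targets, Aldoa among them, and its median log2 difference was 0.15. In C alone 28 rose (21.9%) and 0 fell beside 4.50% and 2.23% of all genes, with a median of 0.48 against 0.0671. The corrected fit gave 55 higher (43.0%) and 15 lower (11.7%), beside 19.8% and 26.3% of all genes, with a median of 0.24 against -0.0763. Without knockout B 25 rose, beside 1064 of all 10918 genes. Without C 44 of the 128 rose and 33 fell, beside 3484 and 3424 of all 10918 genes. The share that rose without C was thus near that of all genes. Without 1 of the other 5 livers 1 to 6 fell. G6pc3, a widely expressed glucose-6-phosphatase, stood at 4.86, 3.37 and 4.45 FPKM and 40.6, 36.7 and 20.5 FPKM, a difference of 2.64 ± 0.23 (SE, limma adjusted p = 1.8e-05). Maf1, a repressor of RNA polymerase III, stood at 12, 12.3 and 10.5 FPKM and 51.1, 48.4 and 31 FPKM, a difference of 1.79 ± 0.21 (SE, limma adjusted p = 0.00014). Zyx, a focal adhesion protein, went from 13.3, 7.43 and 10 FPKM to 71, 64.3 and 18.4 FPKM, a difference of 2.03 ± 0.40 (SE, limma adjusted p = 0.0034). For comparison, of 189 tested predicted targets of miR-21, an abundant microRNA of injured liver, 23 rose and 42 fell with a median of -0.39, whereas in C alone 8 rose and 4 fell with a median of 0.20. In the corrected fit 36 rose and 44 fell with a median of -0.08, shares near the 19.8% and 26.3% of all genes. Without knockout C 111 of the 189 fell, beside 3424 of all 10918 genes. Without uninjected B, uninjected C, knockout A or knockout B 13 to 19 fell, and without uninjected B or knockout B 11 or 12 rose.

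Transcripts of 2 imprinted regions rose in every knockout liver. All 5 of the tested transcripts of the Igf2-H19 and Dlk1-Dio3 regions rose, also in the corrected fit, and their median in C alone was 4.65. The other 4 of the 9 listed did not reach a mean of 1 FPKM. The 5 averaged 0.0253 to 0.976 FPKM in uninjected livers, so each passed the filter only through the knockout livers. That all 5 rose was therefore in part fixed by the filter. Each of the 5 is the host of microRNAs in the annotation of the mouse mm9 build. One mature 3p microRNA of each host is shown so that the sequences can be told apart, with the seed (bases 2 to 8) in capitals, from RefSeq (GRCm38.p6):
miR-483-3p (in Igf2): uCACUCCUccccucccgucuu
miR-675-3p (in H19): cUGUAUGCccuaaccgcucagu
miR-770-3p (in Meg3): cGUGGGCCugacguggagcugg
miR-370-3p (in Rian): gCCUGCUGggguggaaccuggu
miR-410-3p (in Mirg): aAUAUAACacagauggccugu
The 5 seeds differ from one another. Small RNA of the germline knockout livers was not analysed here, so the values below are those of the host transcripts.

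H19, a long noncoding RNA made in fetal liver (chr7:149761436-149764051, mm9, minus strand), stood at 2.03, 0.415 and 0.486 FPKM in uninjected livers and 3338, 4008 and 1727 FPKM in knockout livers. The log2 difference was 10.59 ± 0.86 (SE, limma adjusted p = 1.3e-05), and 11.19 (limma adjusted p = 0.00021) in C alone. Igf2, the fetal insulin-like growth factor (chr7:149836672-149846940, minus strand), went from 1.82, 0.2 and 0.22 FPKM to 2073, 3169 and 469 FPKM, a difference of 9.83 ± 1.12 (SE, limma adjusted p = 0.00012). It was lowest in C among the knockout livers, at 9.02 (limma adjusted p = 0.013) in C alone. Meg3 (chr12:110779205-110809939, plus strand), the maternally expressed noncoding RNA of the Dlk1-Dio3 region, stood at 0.392, 0.181 and 0.348 FPKM and 48.1, 86.1 and 42.8 FPKM, a difference of 5.46 ± 0.63 (SE, limma adjusted p = 0.00014). Rian (chr12:110842154-110899921), which lies downstream, stood at 0.236, 0.123 and 0.234 FPKM and 11.2, 26.1 and 40.5 FPKM, a difference of 4.32 ± 0.56 (SE, limma adjusted p = 0.00031). Mirg (chr12:110973190-110987667), with 8 named microRNA genes inside its bounds, stood at 0.015, 0 and 0.061 FPKM and 6.98, 7.4 and 9.19 FPKM, a difference of 3.10 ± 0.38 (SE, limma adjusted p = 0.00019). C was the highest knockout liver for Rian and Mirg and the lowest for H19, Igf2 and Meg3. None of the 5 had overlapping groups, which for H19, Igf2 and Meg3 was also a condition of 1 of the rules that named them.

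Other transcripts of fetal liver rose as well. With H19 and Igf2 included, 8 of 11 tested fetal and oncofetal genes were higher and 0 lower, with a median of 2.97, and of 2.64 in C alone. The list holds 17 genes, and the others did not reach a mean of 1 FPKM. Members such as H19 and Igf2, which averaged 0.976 and 0.746 FPKM in uninjected livers, were tested only through their knockout levels. The share that rose was in part fixed by this filter. Afp, the albumin-like protein of fetal serum, was chosen for mention after its values were seen and stood at 0.632, 0.673 and 0.545 FPKM and 14.9, 21.3 and 9.5 FPKM. Its difference was 3.26 ± 0.31 (SE, limma adjusted p = 3.3e-05). Ly6d, a surface protein of the Ly6 family, went from 3.4, 1.68 and 2.62 FPKM to 277, 493 and 18.3 FPKM, with a difference of 5.31 ± 0.93 (SE, limma adjusted p = 0.0019) and its highest levels in A and B. Gpc3, Sox4 and Tff3 were the 3 tested members that did not pass.

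Markers of bile duct cells were almost all higher. Of 15 tested, 14 rose and 0 fell, with a median of 2.30, and their summed level was 236 to 308 FPKM in uninjected livers and 1862, 2098 and 1101 FPKM in knockout livers. Of these, 6 also passed in C alone, with a median of 1.22, and 14 in the corrected fit. Spp1, or osteopontin, made by bile duct cells and by macrophages of injured tissue, stood at 40.9, 45.2 and 54.6 FPKM and 506, 732 and 533 FPKM, a difference of 3.62 ± 0.36 (SE, limma adjusted p = 4.4e-05). Epcam, an adhesion molecule of bile duct and progenitor cells, went from 0.963, 1.04 and 1.28 FPKM to 13.3, 19.3 and 10.1 FPKM, a difference of 2.82 ± 0.34 (SE, limma adjusted p = 0.00018). Cldn7, a tight junction protein, stood at 0.438, 0.352 and 0.623 FPKM and 14.2, 28.7 and 5.17 FPKM, a difference of 3.26 ± 0.46 (SE, limma adjusted p = 0.00053). Krt18, a keratin that hepatocytes make too, stood at 163, 103 and 115 FPKM and 766, 692 and 317 FPKM, and its difference of 2.14 ± 0.33 (SE, limma adjusted p = 0.00087) did not pass in C alone (1.22, limma adjusted p = 0.079). The groups did not overlap for any of these 4 genes, and C was the lowest knockout liver for the last 3.

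The summed level of hepatocyte markers was 30714 to 40217 FPKM in uninjected livers and 58677, 57176 and 52328 FPKM in knockout livers, but 4 of the members hold zeros that can be failed estimates, so the sums were not compared. Of 23 tested, 2 rose and 2 fell, beside 19.3% and 14.9% of all genes, with 1 to 3 higher and 0 to 4 lower when 1 liver was left out, and a median of -0.08. In the corrected fit 2 rose and 5 fell, beside 19.8% and 26.3% of all genes, and in C alone 1 rose. Apoa1, the main protein of high-density lipoprotein, stood at 13489, 11396 and 11756 FPKM and 14424, 13925 and 7539 FPKM, a difference of -0.08 ± 0.27 (SE, limma adjusted p = 0.82), which passed in the corrected fit (-0.74, limma adjusted p = 0.0094). Alb was listed at 0 in each of the 6 livers. Both that rose, Serpina1a and Serpina1c, belong to a family of near-identical copies among which fragments are assigned uncertainly. Serpina1a was listed at 0 in the 3 uninjected livers and at 1897, 2036 and 1286 FPKM in knockout livers (limma adjusted p = 0.063 in C alone), and Trf, a gene every hepatocyte uses, was listed at 0 in 4 of the 6 livers, so such zeros can be failed estimates. In all, 16 tested genes held zeros of this kind.

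Acute phase genes rose in part. Of 24 tested, 11 were higher and 0 lower, with a median of 0.78, and 7 were higher in C alone. Without uninjected B or without knockout B the count was 7, and without knockout C 14 rose and 3 fell. Lcn2, or lipocalin 2, which binds bacterial siderophores, stood at 15.1, 2.27 and 12.8 FPKM in uninjected livers and 1937, 2098 and 536 FPKM in knockout livers. Its difference was 7.17 ± 0.66 (SE, limma adjusted p = 2.8e-05), and 6.62 (limma adjusted p = 0.0011) in C alone. Orm2, an orosomucoid of the acute phase, went from 19.9, 5.09 and 28.2 FPKM to 755, 498 and 147 FPKM, a difference of 4.62 ± 0.69 (SE, limma adjusted p = 0.00079). Saa1, a serum amyloid A, stood at 112, 61 and 89.1 FPKM and 659, 655 and 967 FPKM, a difference of 3.12 ± 0.42 (SE, limma adjusted p = 0.00039), and was highest in C. For none of these 3 genes did the groups overlap, which for Lcn2 was also a condition of 1 of the rules that named it. The fibrinogen genes Fga, Fgb and Fgg, Crp and Cp did not pass. Of 15 tested genes of systemic iron control 6 rose (40.0%), Hfe2 and Lcn2 among them, and 0 fell, beside 19.3% and 14.9% of all genes. Without knockout A 3 rose, beside 1300 of all 10918 genes. In the corrected fit 4 rose (26.7%) and 1 fell (6.67%), beside 19.8% and 26.3% of all genes. The median in C alone was 0.33.

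**Figure D4:**
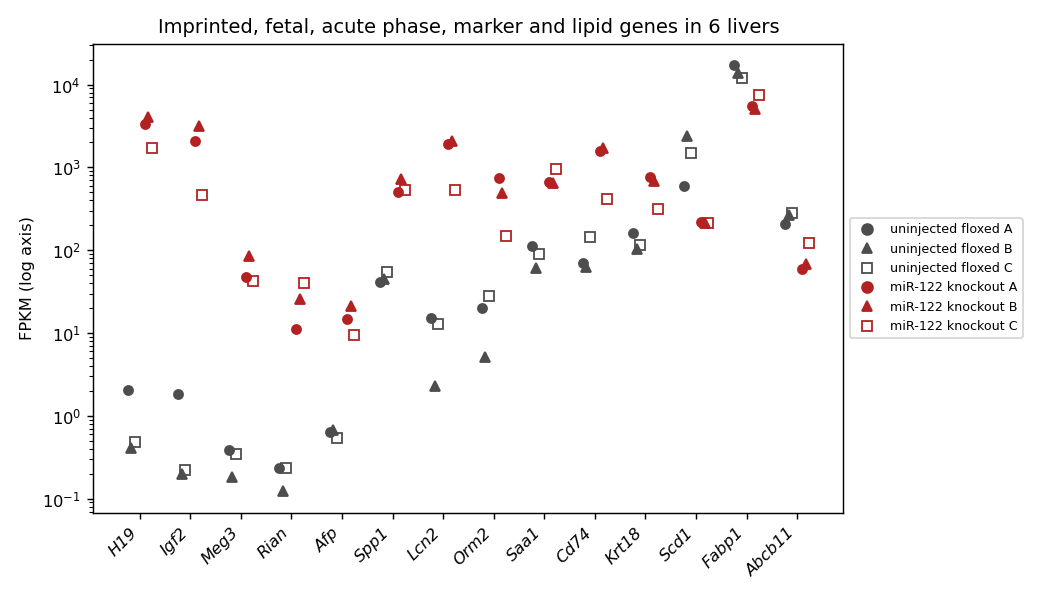
FPKM on a log axis of 14 genes of the groups described in the text, in the 6 livers; circles, triangles and open squares are livers A, B and C, grey uninjected and red knockout. From H19 to Krt18 each knockout liver lies above each uninjected liver, and for Scd1, Fabp1 and Abcb11 each lies below.

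Part of the immune cell transcripts rose. MHC class II and B cell genes gave 8 higher and 0 lower of 9 tested, with a median of 2.90, and 0 passed in C alone, where the median was 1.41. Their summed level was 148 to 378 FPKM in uninjected livers and 3709.5, 3796 and 949 FPKM in knockout livers. Cd74, the invariant chain of class II antigen presentation, stood at 70.6, 63.1 and 143 FPKM and 1597, 1733 and 411 FPKM. Its difference was 3.58 ± 0.53 (SE, limma adjusted p = 0.00072), and 2.09 (limma adjusted p = 0.073) in C alone. H2-Ab1, a class II beta chain, went from 30, 20 and 57.9 FPKM to 721, 735 and 174 FPKM, a difference of 3.75 ± 0.56 (SE, limma adjusted p = 0.00078), and 2.29 (limma adjusted p = 0.077) in C alone. Both genes were above every uninjected liver in C as well, at less than 0.5 of the levels in A and B. Of 19 tested macrophage genes 10 rose and 0 fell, with a median of 1.11 and a summed level of 493 to 844 FPKM against 2653, 2309.6 and 1138 FPKM. Spp1, which the bile duct list also holds, is the most abundant member. Without it, a choice made after the data had been seen, the sum was 600.1, 448 and 789.6 FPKM in uninjected livers and 2147, 1578 and 605 FPKM in knockout livers, so C lay within the uninjected range. In C alone 3 passed and the median was 0.10, and without uninjected A or B or knockout A or B the count was 4 to 6. The resident Kupffer cell markers Clec4f, Vsig4, Marco and Timd4 did not pass, and Cd14, a co-receptor for bacterial lipopolysaccharide, stood at 3.67, 2.01 and 4.46 FPKM and 43.6, 57.8 and 15 FPKM, a difference of 3.03 ± 0.43 (SE, limma adjusted p = 0.00059). Of 14 T and NK cell genes 7 were tested, of which 4 rose (57.1%) and 0 fell, beside 19.3% and 14.9% of all genes. Without uninjected B, knockout A or knockout B 1 or 2 rose, and the median in C alone was 0.40. Cd8b1, Cd3d and Lck averaged 0.197, 0.516 and 0.606 FPKM in uninjected livers, so they were tested only through their knockout levels. The summed level of the 14 was 7.54 to 15.6 FPKM against 38.4, 26.2 and 18.9 FPKM. The part of cell composition in these results was not tested.

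Of 16 annexin and S100 genes, which encode calcium-binding proteins, 10 rose and 0 fell, with a median of 1.22, and 2 passed in C alone, while the corrected fit gave 11 higher and 2 lower. Anxa2, which binds membranes and plasminogen, stood at 14.5, 12.5 and 16.7 FPKM and 157, 197 and 64.9 FPKM, a difference of 3.04 ± 0.37 (SE, limma adjusted p = 0.00019). S100a8, a protein of neutrophils, went from 4.46, 2.07 and 9.41 FPKM to 89.6, 75 and 14.9 FPKM, a difference of 3.10 ± 0.68 (SE, limma adjusted p = 0.006) that did not pass in C alone (1.27, limma adjusted p = 0.4). Of 18 chemokine genes 11 rose and 0 fell, and without uninjected B, knockout A or knockout B the count was 5 to 7. In C alone 4 rose. Cxcl1, a neutrophil attractant, stood at 5.17, 2.17 and 4.32 FPKM and 12.1, 23.9 and 50.2 FPKM, a difference of 2.44 ± 0.41 (SE, limma adjusted p = 0.0015), with its highest level in C. The groups did not overlap for Anxa2, S100a8 or Cxcl1. Interferon-stimulated genes gave 9 higher (30.0%) and 2 lower (6.67%) of 30 tested, beside 19.3% and 14.9% of all genes. In C alone their median was 0.016, against 0.0671 for all genes. Without uninjected B, knockout A or knockout B 1 was higher, and without uninjected C 4 were. In the corrected fit 11 were higher (36.7%) and 4 lower (13.3%), beside 19.8% and 26.3% of all genes.

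Most matrix genes rose. Of 27 tested collagen and matrix genes 21 were higher and 0 lower, with a median of 1.24, and 1 passed in C alone, where the median was 0.82. Without uninjected B, knockout A or knockout B the count was 11 to 13. Col1a1, the main fibrillar collagen of scars, stood at 0.942, 0.648 and 0.881 FPKM and 10.2, 16.6 and 2.64 FPKM. Its difference was 2.30 ± 0.52 (SE, limma adjusted p = 0.0068), and 1.09 (limma adjusted p = 0.29) in C alone. Timp1, an inhibitor of matrix proteases, went from 0.406, 0.165 and 0.244 FPKM to 8.93, 8.92 and 2.44 FPKM, a difference of 2.46 ± 0.54 (SE, limma adjusted p = 0.0063) that did not pass in C alone (0.86, limma adjusted p = 0.43). Both genes stood in C between the uninjected livers and A and B. Of 20 tested stellate cell and fibroblast genes 14 rose and 0 fell, 2 of them in C alone, and 9 without knockout B. Their summed level was 169 to 233 FPKM in uninjected livers and 337, 398 and 394 FPKM in knockout livers. Dcn, or decorin, the most abundant member, stood at 157, 116 and 158 FPKM and 108, 118 and 245 FPKM, with a log2 difference of 0.05 ± 0.27 (SE, limma adjusted p = 0.91) and of 0.93 (limma adjusted p = 0.033) in C alone. It passed in the corrected fit too (0.43, limma adjusted p = 0.0497). Without Dcn, a choice made after the data had been seen, the sum was 70.4, 52.9 and 75.3 FPKM in uninjected livers and 229, 279 and 149 FPKM in knockout livers, so C lay below A and B and above the uninjected livers. Acta2 and Lrat did not pass. Sinusoidal endothelium gave 2 higher and 3 lower of 15 tested, near the 19.3% and 14.9% of all genes, with a median of 0.10. The corrected fit gave 1 higher and 2 lower, and C alone 0 and 1. Without knockout C 6 were higher, without uninjected A or B or knockout A or B 1 was, and without uninjected B or C 1 was lower. Its summed level was 175 to 276 FPKM against 227, 212 and 178 FPKM. Clec4g, a lectin of these cells, fell from 65.5, 74.4 and 98.8 FPKM to 53.8, 40.4 and 35.5 FPKM, a difference of -0.87 ± 0.19 (SE, limma adjusted p = 0.0055). The largest change past the threshold was a rise, of Cd34, from 1.39, 0.829 and 1.2 FPKM to 10.5, 15.8 and 6.55 FPKM. Its difference was 2.42 ± 0.36 (SE, limma adjusted p = 0.00081). Eng was the other member that rose (0.76 ± 0.25 SE, limma adjusted p = 0.034).

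**Figure D5:**
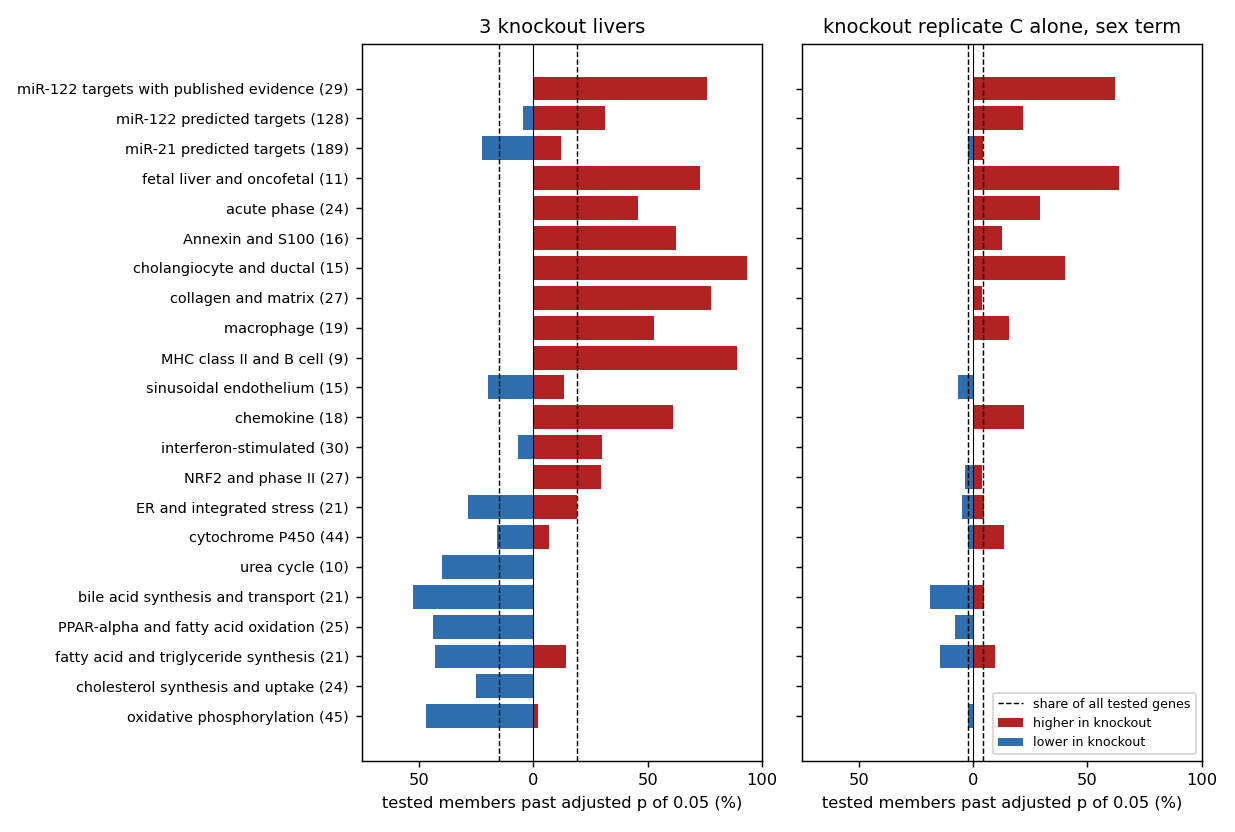
Share of tested members of 22 gene lists (number tested in parentheses) that passed an adjusted p of 0.05, to the right of 0 where higher in the knockout and to the left where lower, in percent, for the 3 knockout livers (left panel) and for C alone with the sex term (right panel); dashed lines mark the share of all tested genes, 19.3% and 14.9% on the left and 4.50% and 2.23% on the right. Of the published miR-122 targets 75.9% are higher on the left and 62.1% on the right, and of the collagen and matrix genes 77.8% and 3.7%.

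Some genes of lipid synthesis fell. Of 21 genes of fatty acid and triglyceride synthesis 9 fell and 3 rose, with a median of -0.75, and in C alone 3 fell and 2 rose with a median of -0.59. Without knockout C 5 rose. Scd1, the desaturase that makes monounsaturated fatty acids, stood at 589, 2419 and 1494 FPKM in uninjected livers and 219, 216 and 213 FPKM in knockout livers. Its difference was -2.57 ± 0.57 (SE, limma adjusted p = 0.0066), and -3.04 (limma adjusted p = 0.079) in C alone. Acacb, the acetyl-CoA carboxylase whose product limits mitochondrial fatty acid uptake, fell from 9.05, 12.1 and 10.7 FPKM to 1.55, 2.94 and 1.2 FPKM, a difference of -2.04 ± 0.38 (SE, limma adjusted p = 0.0025). Elovl6, an elongase, fell from 28.1, 29.5 and 27.9 FPKM to 3.04, 5 and 13.5 FPKM, a difference of -2.06 ± 0.41 (SE, limma adjusted p = 0.0036), and was least reduced in C. Elovl6 did not pass in C alone (-0.79, limma adjusted p = 0.26). All knockout livers lay below all uninjected livers for Scd1, Acacb and Elovl6. Agpat1, described above as a target, was 1 of the 3 that rose. For cholesterol synthesis and uptake 6 of 24 genes fell and 0 rose, with a median of -0.55. Of all genes 14.9% fell and 19.3% rose. In C alone 0 of the 24 passed, and without uninjected A, uninjected C, knockout A or knockout B 1 or 2 fell. In the corrected fit 12 of the 24 fell, beside 26.3% of all genes. Sc5d, which acts late in cholesterol synthesis, fell from 533, 310.4 and 424 FPKM to 58.8, 75.2 and 149 FPKM, a difference of -2.23 ± 0.35 (SE, limma adjusted p = 0.001) that did not pass in C alone (-1.07, limma adjusted p = 0.063).

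In lipoprotein assembly 5 of 17 genes fell and 2 rose, beside 14.9% and 19.3% of all genes, while 3 fell without knockout A or B and 5 rose without C. The corrected fit gave 9 lower and 2 higher, and C alone 1 of each. Mttp, which loads lipid onto apolipoprotein B, fell from 92.2, 129 and 122 FPKM to 22.5, 30.5 and 63.9 FPKM, a difference of -1.65 ± 0.29 (SE, limma adjusted p = 0.002). Apoa4, an apolipoprotein of triglyceride-rich particles, rose from 231, 76.3 and 143 FPKM to 623, 494 and 374 FPKM, a difference of 1.83 ± 0.41 (SE, limma adjusted p = 0.0068). Apoc2, the activator of lipoprotein lipase, rose from 495, 345 and 390.3 FPKM to 1346, 1029 and 1046 FPKM, a difference of 1.48 ± 0.18 (SE, limma adjusted p = 0.00017). In C alone neither Mttp (-0.87, limma adjusted p = 0.055) nor Apoa4 (1.90, limma adjusted p = 0.073) passed. Both apolipoproteins lay above every uninjected liver in each knockout liver, C included.

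Part of the genes of fatty acid oxidation and of the respiratory chain fell. Of 25 targets of PPAR-alpha and genes of fatty acid oxidation 11 fell and 0 rose, with a median of -0.79, and 2 fell in C alone with a median of -0.54. Acaa1b, a peroxisomal thiolase, stood at 454, 549.8 and 372 FPKM and 149, 77.3 and 97.4 FPKM. Its difference was -2.11 ± 0.28 (SE, limma adjusted p = 0.00034), and -2.37 (limma adjusted p = 0.005) in C alone. Ehhadh, the peroxisomal bifunctional enzyme, fell from 169, 148 and 259 FPKM to 39.4, 43.5 and 90.9 FPKM, a difference of -1.77 ± 0.30 (SE, limma adjusted p = 0.0015). Fabp1, the abundant fatty acid binding protein of hepatocytes, stood at 17102, 13775 and 11873 FPKM and 5450.3, 5024 and 7446 FPKM, a difference of -1.26 ± 0.32 (SE, limma adjusted p = 0.012), and without knockout B the adjusted p was 0.057 (limma). In C alone Ehhadh (-0.81, limma adjusted p = 0.11) and Fabp1 (-0.85, limma adjusted p = 0.37) did not pass. Of 45 oxidative phosphorylation subunits 21 fell and 1 rose, with a median of -0.46. The median in C alone was -0.47, although 1 fell and 0 rose, and 13 fell without knockout A and 9 without B. Without C 4 rose, and in the corrected fit 32 fell and 0 rose. Sdhd, a subunit of complex II, fell from 340.3, 274 and 292 FPKM to 133, 159 and 169.6 FPKM, a difference of -0.97 ± 0.15 (SE, limma adjusted p = 0.001). None of the 4 genes just given had overlapping groups. In glycolysis 5 of 24 genes rose, Aldoa and Gys1 among them, and 3 fell, shares near the 19.3% and 14.9% of all genes, against 9 and 6 without C and 2 and 1 in C alone. Without uninjected B, knockout A or knockout B 3 rose, and in the corrected fit 5 rose and 9 fell. Slc2a1, the glucose transporter GLUT1, rose from 3.6, 3.72 and 4.41 FPKM to 21.4, 19.8 and 10.3 FPKM, a difference of 1.83 ± 0.27 (SE, limma adjusted p = 0.00078). Pklr, the liver-type pyruvate kinase, fell from 115, 156 and 117 FPKM to 34.9, 52.9 and 40.9 FPKM, a difference of -1.58 ± 0.23 (SE, limma adjusted p = 0.00076). Slc2a1 did not pass in C alone (1.20, limma adjusted p = 0.066).

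Bile acid genes gave 11 lower and 0 higher of 21 tested, with a median of -0.83, and 4 fell in C alone while 1 rose. Abcb11, the bile salt export pump, fell from 209.9, 269.9 and 281 FPKM to 60, 67.5 and 123 FPKM, a difference of -1.65 ± 0.27 (SE, limma adjusted p = 0.0013). Slco1a1, an organic anion uptake transporter that is higher in male liver, stood at 39.8, 188 and 70.2 FPKM and 0.104, 0.186 and 10.7 FPKM. Its difference was -5.05 ± 0.92 (SE, limma adjusted p = 0.0023), with the highest uninjected and the highest knockout value both in the livers with male transcripts. Slc27a5, which activates bile acids for conjugation, fell from 746, 623 and 738 FPKM to 349.9, 274 and 310.3 FPKM, a difference of -1.17 ± 0.20 (SE, limma adjusted p = 0.0017). In C alone neither Abcb11 (-0.98, limma adjusted p = 0.099) nor Slc27a5 (-1.06, limma adjusted p = 0.062) passed. Slco1b2, another uptake transporter, stood at 472, 509.6 and 464 FPKM and 62.8, 77 and 514 FPKM, so A and B were low and C was not. It passed with 3 livers (-1.82 ± 0.58 SE, limma adjusted p = 0.03), whereas C alone gave 0.19 (limma adjusted p = 0.73), and without any 1 of the other 5 livers it did not pass (limma adjusted p = 0.064 to 0.14). The largest changes past the threshold among cytochrome P450 genes were falls, of Cyp2c38 (-3.64 ± 0.77 SE, limma adjusted p = 0.0052) and Cyp39a1 (-2.70 ± 0.53 SE, limma adjusted p = 0.0035). Next came a fall of Cyp2c37 (-1.99 ± 0.63 SE, limma adjusted p = 0.029). Of 44 cytochrome P450 genes 3 rose (6.82%) and 7 fell (15.9%), beside 19.3% and 14.9% of all genes, with a median of -0.29, and without knockout B 4 fell. In C alone 6 rose and 1 fell, with a median of 0.13, and in the corrected fit 8 rose and 13 fell. Cyp2a5, the coumarin hydroxylase, rose from 342, 96.7 and 158 FPKM to 758, 848 and 423 FPKM, a difference of 1.89 ± 0.46 (SE, limma adjusted p = 0.0096) that did not pass in C alone (1.45, limma adjusted p = 0.25), and the abundant pericentral Cyp2e1 did not pass, at 5396, 4989 and 5449 FPKM and 5195, 5392 and 6856 FPKM. Of 10 urea cycle genes 4 fell and 0 rose, with 0 in C alone, and without uninjected B, knockout A or knockout B 1 or 2 fell, whereas 6 fell in the corrected fit.

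Of 21 genes of endoplasmic reticulum and integrated stress 4 rose and 6 fell, beside 19.3% and 14.9% of all genes, while 3 fell without uninjected B, uninjected C or knockout B and 2 rose without knockout B. In C alone 1 rose and 1 fell. Hspa5, or BiP, the main chaperone of the endoplasmic reticulum, fell from 381, 618 and 422 FPKM to 126, 109 and 186 FPKM, a difference of -1.76 ± 0.23 (SE, limma adjusted p = 0.00037). Asns, asparagine synthetase and a target of the amino acid response, rose from 0.492, 2.27 and 0.33 FPKM to 11.1, 10.5 and 12.6 FPKM, a difference of 2.73 ± 0.50 (SE, limma adjusted p = 0.0024), with C the highest. Of 27 antioxidant and phase II genes 8 rose and 0 fell with 3 livers, beside 19.3% and 14.9% of all genes. In the corrected fit 8 rose and 5 fell, beside 19.8% and 26.3% of all genes, and in C alone 1 rose and 1 fell. Without any 1 of the livers other than knockout C 3 to 5 rose. Gstm3, a glutathione transferase, rose from 20.6, 23.7 and 26.1 FPKM to 419.8, 314 and 147 FPKM, a difference of 3.47 ± 0.50 (SE, limma adjusted p = 0.00059). For Hspa5, Asns and Gstm3 the groups did not overlap. Cdkn1a, the cell cycle inhibitor p21, rose from 2, 1.36 and 4.34 FPKM to 47, 47.2 and 10.1 FPKM, a difference of 3.14 ± 0.50 (SE, limma adjusted p = 0.0011). In C alone neither Gstm3 (2.36, limma adjusted p = 0.077) nor Cdkn1a (1.83, limma adjusted p = 0.06) passed.

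Some genes lay outside the range of all 11 floxed livers, 8 of which had received Cre. All 3 knockout livers lay above all 11 for 96 genes (0.879%) and below for 368 (3.37%). Rpl29, a ribosomal protein, stood at 77, 88.7 and 99.1 FPKM in uninjected livers, 47.5 to 167 FPKM over the 11 floxed livers and 0.341, 0.281 and 0.135 FPKM in knockout livers, a difference of -6.15 ± 0.20 (SE, limma adjusted p = 2.2e-09). Ren1, the renin gene, whose copy number differs between mouse strains, stood at 0.014, 0.043 and 0 FPKM, at most 0.222 FPKM in any floxed liver and 19.7, 17.9 and 14.4 FPKM in knockout livers, a difference of 4.16 ± 0.14 (SE, limma adjusted p = 2.2e-09). Nlrp12, an inflammasome-related sensor of myeloid cells, stood at 7.07, 12.3 and 9.07 FPKM and 0.143, 0.131 and 0.11 FPKM, a difference of -3.19 ± 0.35 (SE, limma adjusted p = 8.9e-05). It was low after Cre too, with 1.65, 1.77 and 0.373 FPKM at day 45, from which the knockout differed by -0.94 (limma adjusted p = 0.085). Vil1, the villin of microvilli, stood at 0.352, 0.156 and 0.211 FPKM and 25.8, 34.4 and 16.7 FPKM, with at most 7.92 FPKM in a floxed liver, and its difference was 4.37 ± 0.24 (SE, limma adjusted p = 4e-07). Ifi202b, which is expressed in 129 mice and not in C57BL/6 mice, was chosen for mention after its values were seen and was listed at 0 in all 11 floxed livers and at 1.71, 1.44 and 3.86 FPKM in knockout livers. The labels give 129Sv/J for the floxed mice too, and whether the strain background differs between the lines was not tested. A listed 0 can be a failed estimate, but Ifi202b was not among the genes counted above as holding such zeros, which were abundant in other livers. Of 23 tested genes known to vary between strains, MHC class I genes among them, 9 rose (39.1%) and 5 fell (21.7%), beside 19.3% and 14.9% of all genes. Without uninjected B, knockout A or knockout B 4 rose, beside 1064 to 1313 of all 10918 genes. In C alone 2 rose and 3 fell. In the other direction LOC624853 was listed at 0 in the 3 knockout livers and at 435, 206 and 197 FPKM in uninjected livers. At the presence thresholds of at least 1 FPKM in each liver of a group and under 0.1 FPKM in each of the other, 26 genes passed as present in the knockout livers and 7 in the uninjected livers. Of the 26, 7 were listed at exactly 0 in all 3 uninjected livers, Serpina1a among them, and of the 7, 1 was listed at 0 in all 3 knockout livers, so failed estimates can be among these counts.

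Around the miR-122 gene itself 0 of 8 tested neighbours rose and 2 fell (25.0%), beside 19.3% and 14.9% of all genes. Without uninjected B, knockout A or knockout B 0 were lower, and without knockout C 6 were, beside 3424 of all 10918 genes. In the corrected fit 1 was higher (12.5%) and 3 lower (37.5%), beside 19.8% and 26.3% of all genes. The median in C alone was 0.043. Sec11c, a signal peptidase subunit encoded in the same region, stood at 36.4, 36.5 and 32.2 FPKM and 33.9, 33.2 and 37.7 FPKM (limma adjusted p = 0.98), with overlapping groups. The table lists the miR-122 precursor at 0 in every library of both groups, so it does not check the genotype.

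Liver C differed from A and B far more than these differed from each other. Of the 10918 genes, 2691 (24.6%) differed by more than 1 on the log2(FPKM + 1) scale between C and the mean of A and B, 1523 higher and 1168 lower in C, whereas 104 (0.953%) did so between A and B. Genes of male liver were among the largest positive differences. Mup20, the major urinary protein darcin, stood at 105, 5329 and 41.9 FPKM in uninjected livers and 45.9, 94.3 and 2966 FPKM in knockout livers. Cyp4a12a, a fatty acid hydroxylase of male liver, stood at 0.176, 128 and 0.185 FPKM and 1.89, 0.358 and 122 FPKM. In both genes the high livers were uninjected B and knockout C, the same livers that held Y-linked transcripts. Some genes of female liver were among the largest negative differences. A1bg stood at 55.1, 1.61 and 163 FPKM and 1809, 1152 and 3.15 FPKM. Cyp3a41a, a P450 of female liver, stood at 7.98, 0.163 and 36.6 FPKM and 385, 235 and 0.051 FPKM. Some of the genes lowest in C separated it from A and B without a like split among the uninjected livers. Plac9, a secreted protein of placenta and other tissues, was listed at 0 in all 11 floxed livers and at 58.8, 45.7 and 0.132 FPKM in knockout livers. Rnaset2b, a lysosomal ribonuclease with a near-identical copy, stood at 1.84, 2.22 and 1.71 FPKM and 68.1, 56.3 and 1.3 FPKM. D14Ertd449e stood at 0, 0.025 and 0.196 FPKM and 23.9, 19.1 and 0.02 FPKM, and its call with 3 livers (2.90 ± 0.89 SE, limma adjusted p = 0.026) was lost without any 1 of the livers other than knockout C (limma adjusted p = 0.057 to 0.12). Serpina1c was listed at 0 in the 3 uninjected livers and in C and at 3357 and 4282 FPKM in A and B, and its call (limma adjusted p = 0.044) was lost in the same way (limma adjusted p = 0.086 to 0.18).

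Loss from conception was set against loss in the adult in the same fit. The knockout was a separate line and the livers with adult loss had received a vector. Line, vector and time of loss therefore cannot be told apart here. Against the 3 livers taken 45 days after the Cre vector, 134 genes were higher in the knockout (1.23%) and 693 lower (6.35%), with a median log2 difference of -0.218. When each library was centred the counts were 171 and 207. In the corrected fit 924 genes differed in either direction, and in a fit of the knockout and day 45 libraries alone 45 did. H19 and Igf2 stood at 392, 845 and 66.3 FPKM and 39.8, 255 and 3.66 FPKM at day 45, below each knockout liver, with differences of 3.34 (limma adjusted p = 0.039) and 5.32 (limma adjusted p = 0.02). At days 100 and 200, with 1 liver each, H19 stood at 2539 and 2486 FPKM and Igf2 at 2932 and 2374 FPKM, within the range of the knockout livers. Without knockout C the number differing in either direction was 5697 and without knockout B it was 207. It was 234 without knockout A and 549 without uninjected C.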

How the data were processed

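Polyadenylated RNA of mouse livers had been sequenced by the authors, who per the labels and methods aligned reads to mm9 with TopHat and deposited FPKM from Cufflinks (2.2.1), scaled to the quartile, and state that ribosomal, small nucleolar and mitochondrial RNA was removed, although the table still lists some small nucleolar RNAs. The deposited FPKM hold no counts. Rows of 1 symbol were added. FPKM were analysed as log2(FPKM + 1) with limma (3.58.1, trend) in R 4.3.3. Genes had a mean of at least 1 FPKM over the 6 livers. A gene low in 1 group was thus tested only where it was high enough in the other, which favours calls among low genes. All 14 RNA-seq libraries entered 1 fit of 5 groups with 9 residual degrees of freedom, days 100 and 200 forming 1 group. Tests were two-sided with Benjamini-Hochberg adjustment over the 10918 genes and a threshold of 0.05. A log2 difference with a pseudocount of 1 understates changes of low genes. Depth is an estimate from the step that 1 fragment makes in low values. Transcript GC content and length came from the GENCODE annotation of the same build and were available for 10808 genes. Named genes were the 10 largest rises and falls, up to 4 called members and the most abundant member of each list, the 10 genes most different in liver C each way, genes at or above 1 FPKM in 1 group and under 0.1 FPKM in the other, and sex-linked and neighbouring genes. The rises and falls were picked among genes past the threshold with all knockout livers on 1 side of all uninjected livers. For genes named by that rule the lack of overlap was therefore a condition of the pick. Ccng1, Afp, Ifi202b and members named only as not passing fall outside this rule, picked with their values in view. The genes and lists were chosen with earlier results of these data known. Small RNA libraries of the series were not used here, and replicate letters did not pair the knockout and uninjected livers.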

Additional observations from a re-analysis of the deposited data

How the results depend on the processing

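Of the 2106 higher and 1629 lower genes, counts with a pseudocount of 0.1, with no filter, with centred libraries, with the highest row per symbol or with a sex term stayed within 1.5 times these. The 6 libraries alone gave 768 higher and 274 lower (2046 and 1393 at an unadjusted p under 0.05) and 18 higher predicted targets against 40, from a fit with fewer samples to estimate the spread. Array weights, whose estimation did not converge and gave knockout B a weight of 32.3 against 0.0252 for C, called 4536 higher and 4093 lower. Of the alternatives chosen after seeing the data, GC and length correction gave 2549 lower and, with a sex term, 2844, and C alone gave 491 higher and 243 lower. Leaving out 1 liver at a time gave 1064 to 3484 higher, 563 to 3424 lower, 25 to 44 predicted targets and 207 to 5697 genes differing from day 45. The 827 genes differing from day 45 were 1311 with no filter, 378 with centred libraries, 7506 with array weights, 1629 with a sex term, 231 with C alone and 45 from the knockout and day 45 libraries alone, and the causes were not tested. The fit of only the 6 knockout and uninjected libraries holds no day 45 liver and gave no value for this. With a replicate block the counts were 1726 higher, 1206 lower, 37 predicted targets and 353 against day 45. Same-lettered knockout and uninjected livers did not deviate together (r = 0.319 for A, -0.337 for B and -0.104 for C over genes), so the letters were not read as pairs. Of 69 named genes past the threshold, 61 kept their call without each liver in turn, 67 of the 68 with a value did in the corrected fit and 41 did in C alone, while 10 lost it in the 6 libraries alone and 3 under the block. The sign turned with array weights for Dcn (-0.32) and Ccng1 (-0.47) and, for Ccng1 with 1 liver left out, between -0.50 without knockout C and 0.45 without knockout A, and in C alone for Rnaset2b (-0.54), Pf4 (-0.014) and Slco1b2 (0.19). Depth limits low genes: 1 fragment on 1 kilobase was worth 0.0192 to 0.0218 FPKM in uninjected and 0.035 to 0.0435 FPKM in knockout libraries.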

Other observations

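Markers of red blood cells and of other organs were measured in the same libraries and were not described as groups above, where of their members Vil1 alone was named. Globin and other erythroid transcripts summed to 124, 161 and 129 FPKM in uninjected livers and 846, 680.0 and 177 FPKM in knockout livers. Of 5 members tested 1 rose and 0 fell, beside 19.3% and 14.9% of all genes. In C alone 0 passed, and for 0 did the 3 knockout livers lie above the 3 uninjected livers. The one that rose, Pf4, a platelet chemokine, stood at 1.61, 1.46 and 1.57 FPKM and 6.70, 6.88 and 1.41 FPKM (limma adjusted p = 0.044), and its call was lost without any 1 of the livers other than knockout C (limma adjusted p = 0.082 to 0.19) and in the corrected fit (limma adjusted p = 0.071). Without knockout C 3 members rose. Hba-a1, an alpha globin and the most abundant member, stood at 0.063, 48.1 and 57.7 FPKM and 458, 239 and 33.4 FPKM, a difference that did not pass (3.43 ± 1.71 SE, limma adjusted p = 0.13). Transcripts of pancreas, muscle, gut, fat, kidney and lung summed to 304, 204 and 153 FPKM in uninjected livers and 77.8, 82.2 and 73.2 FPKM in knockout livers, and 15 of these 21 genes were under 0.1 FPKM in each of the 6 livers. In the uninjected livers the highest of the others was Fabp2, the intestinal fatty acid binding protein, at 280.1, 176 and 128 FPKM in uninjected and 28.5, 19 and 41.2 FPKM in knockout livers, a log2 difference of -2.67 ± 0.38 (SE, limma adjusted p = 0.0006).

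Clock genes, which cycle with the hour of the day, gave 5 higher and 3 lower of 18 tested, beside 19.3% and 14.9% of all genes, with 0 of either in C alone, and 2 higher and 4 lower in the corrected fit, beside 19.8% and 26.3%. Without uninjected A 9 were higher, and without uninjected B, uninjected C, knockout A or knockout B 1 was. The lower count ran from 0 without knockout A or B to 6 without C, with 1 without uninjected B or C. Per1, a repressor of the clock, stood at 3.08, 1.11 and 0.983 FPKM and 17, 16.9 and 2.62 FPKM, a difference of 2.03 ± 0.54 (SE, limma adjusted p = 0.014), and without uninjected B, uninjected C, knockout A or knockout B the limma adjusted p was 0.051 to 0.074. The hour of collection is not given in the sources used here. Of 11 tested genes that make or carry microRNAs 2 rose and 0 fell, near or below the shares of all genes, with a median of -0.23, and without knockout C 6 fell. Without uninjected B or C or knockout A or B 1 rose. Drosha, the nuclease that cuts primary microRNAs, rose from 2.65, 2.48 and 2.49 FPKM to 5.41, 5.77 and 4.92 FPKM with a difference of 0.84 ± 0.15 (SE, limma adjusted p = 0.002). Neither Per1 (0.46, limma adjusted p = 0.65) nor Drosha (0.77, limma adjusted p = 0.073) passed in C alone.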
